A study of Mus musculus with 28 samples.

Results

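Gsn, Apod, Myoc, Gpx3, Serpinf1, Gstm1, Cst3, Clec3b, Inmt and Slurp1 are 10 genes of the 53801 counted in the bulk RNA libraries. They were chosen on these data as genes abundant in periosteal skeletal stem and progenitor cells (pSSPCs) and lower there after deletion of Zmpste24 (Z24). Their pSSPC levels and the pSSPC difference between genotypes are therefore given as a description, with no test. For the members, tests were kept to the growth plate cells and to chromatin accessibility, which the choice did not use, and the pSSPC fits are given as counts over all genes. Most of the 10 encode secreted proteins. Gstm1 and Inmt encode enzymes of the cytosol, so the description as secreted genes does not cover them.

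The study asked how loss of Z24, the zinc metalloprotease that processes prelamin A, alters limb skeletal stem cells in mice. Bulk RNA and ATAC libraries came from 20-week mice, with 3 control and 3 conditional knockout (CKO) libraries for pSSPCs and the same for growth plate cells (gpSSPCs), 24 libraries in all. Each RNA library was made from 1000 sorted cells and each ATAC library from 3000 to 5000. Single-cell RNA libraries of tdTomato+ cells from bone and bone marrow numbered 4: a control and a CKO library at 16 weeks, and Prx1-Cre and Osx-Cre libraries at 8 weeks.

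Prx1-Cre acts in limb bud mesenchyme and its descendants, and Osx-Cre in osteoblast precursors. Both the pSSPC gate (Sca1, encoded by Ly6a) and the gpSSPC gate (CD73, encoded by Nt5e) took tdTomato+ cells, so every library was limited to traced cells. The 16-week single-cell control was PrxCre; Z24fl/+ and the CKO was PrxCre; Z24fl/fl. For the bulk libraries the genotype field reads PrxCre; Z24fl/fl in every sample, and control or CKO is given only in the titles, which were used here. The 8-week libraries carry Z24fl/fl in their labels with PrxCre or OsxCre, whereas the study's methods name no Z24 allele for them.

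The periosteum is the thin fibrous sheath of bone, and its progenitors form bone during growth and fracture repair. Fibroblast-like cells of such sheaths release matrix proteins, carriers, antioxidant enzymes and protease inhibitors into the space around them. Secreted inhibitors limit proteases, extracellular peroxidases reduce peroxides outside the cell, and lipocalins carry small lipids. The growth plate, by contrast, is cartilage, whose cells make type II collagen and aggrecan.

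In mm10 the members lie on 8 chromosomes. On the plus strand are Gsn at chr2:35256380-35307892, Myoc at chr1:162639155-162649693, Gpx3 at chr11:54902453-54910377 and Clec3b at chr9:123150946-123157432. On the minus strand are Apod at chr16:31296192-31314808, Serpinf1 at chr11:75409769-75422701 and Gstm1 at chr3:108012255-108017973, and also Cst3 at chr2:148871722-148875692, Inmt at chr6:55170626-55175043 and Slurp1 at chr15:74724318-74728034.

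Promoter sequences of 4 members are shown because the accessibility data below differ among them. Inmt had a promoter peak in pSSPCs alone, Apod a higher one in pSSPCs than in gpSSPCs, Gsn several starts of which the internal start shown was higher in pSSPCs, and Myoc no promoter peak at all. They are the bases upstream of the RefSeq start in GRCm38.p6 (mm10), cut where an annotated exon begins, and are written 5′ to 3′ on the gene's strand. Capitals mark matches on either strand to the TATA box, searched as TATAAA, the CCAAT box, searched as its name spells it, and the GC box, searched as GGGCGG. The stretches are chr6:55175044-55175240 (minus strand) for Inmt, chr16:31314809-31315058 (minus) for Apod, chr2:35282130-35282379 (plus) for Gsn and chr1:162638900-162639149 (plus) for Myoc.

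Inmt: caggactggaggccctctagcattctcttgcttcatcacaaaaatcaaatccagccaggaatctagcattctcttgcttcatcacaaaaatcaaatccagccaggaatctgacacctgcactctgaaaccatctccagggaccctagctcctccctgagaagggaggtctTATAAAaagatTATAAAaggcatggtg

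Apod: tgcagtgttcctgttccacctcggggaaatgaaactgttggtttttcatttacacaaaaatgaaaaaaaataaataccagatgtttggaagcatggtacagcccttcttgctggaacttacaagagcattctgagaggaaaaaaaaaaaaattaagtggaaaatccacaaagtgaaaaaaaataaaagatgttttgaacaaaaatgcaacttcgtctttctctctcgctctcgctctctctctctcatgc

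Gsn: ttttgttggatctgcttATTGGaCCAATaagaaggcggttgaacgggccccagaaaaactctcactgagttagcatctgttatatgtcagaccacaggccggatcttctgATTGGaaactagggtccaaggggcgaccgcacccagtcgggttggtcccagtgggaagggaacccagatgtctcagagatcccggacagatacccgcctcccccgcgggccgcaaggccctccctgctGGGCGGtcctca

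Myoc: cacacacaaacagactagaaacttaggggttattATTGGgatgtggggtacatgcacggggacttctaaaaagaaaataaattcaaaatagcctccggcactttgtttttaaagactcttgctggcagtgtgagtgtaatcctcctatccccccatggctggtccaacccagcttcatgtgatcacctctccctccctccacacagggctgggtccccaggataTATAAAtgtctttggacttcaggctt

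RefSeq windows of 300 bases (250 before to 50 after the start) were found for 8 of the 10 members, giving 11 windows, and for Clec3b and Slurp1, with none, accessibility was read at a window set from the GENCODE start. The TATA box letters were present in 13.6% of the 32817 windows of all genes, the CCAAT box in 37.4% and the GC box in 35.6%. The letters of the 3 motifs do not contain one another. The Inmt window held the TATA box letters at 2 places, 80 and 69 bases before the RefSeq start and 27 and 16 bases before the start in the GENCODE annotation. The Myoc window held it at 26 bases before its RefSeq start, and 1 of the 2 Gstm1 windows also held it. Base composition varied widely: the Inmt window had 0 CpG and the Gsn window upstream of its first start had 20, against a median of 7 over all windows. Apod had a GC content of 37.3%, below the median of 52.7%, and none of the 3 motifs. A match is a run of letters and not a bound site.

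The bulk RNA libraries held 1333260 to 5315709 counts and detected 12082 to 17207 genes. Replicate 1 stood apart from replicates 2 and 3 in every group. A chi-square test between replicates 2 and 3, over genes with 5 to 99 counts, gave 0.82 to 0.98 for each degree of freedom, which is within sampling noise, against 10.1 to 13.1 between either and replicate 1. Over genes of 20 or more counts the values were 1.59 to 1.92 against 53.2 to 71.5. Replicates 2 and 3 were therefore summed and counted as 1 sample, which left n = 2 per genotype, although all 3 libraries are printed. Statements below on all 3 RNA libraries or pairs of a population thus rest on n = 2 samples per genotype. Nothing in the labels says that libraries came from separate mice, so p-values measure only the spread between these samples.

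Z24 itself had few counts. In pSSPCs its counts were 1, 51 and 84 in the control libraries and 0, 28 and 41 in the CKO libraries, and in gpSSPCs 11, 48 and 80 against 2, 21 and 29. The level was lower in CKO in all 6 same-numbered pairs, and transcripts were still counted in 5 of 6 CKO libraries. These counts cover the whole gene and do not separate the deleted part. The sorting markers followed the gates: in control libraries Ly6a was at 1207, 2719 and 2827 counts scaled to a library total of 1000000 (CPM) in pSSPCs against 304.3, 864.8 and 817.5 in gpSSPCs, and Nt5e at 53.76, 55.32 and 53.68 against 248.7, 197 and 200.3. In CKO pSSPCs Ly6a stood at 1187, 2750 and 2913 CPM, a log2 fold change of 0.02 (SE 0.57, n = 2). Growth plate genes followed the label too, with control Acan at 2983, 5005 and 4008 CPM in gpSSPCs and 491.2, 423.2 and 385.4 in pSSPCs.

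Gsn took more counts than any other gene of control pSSPCs, not scaled for gene length. It encodes gelsolin, which severs and caps actin filaments, and a form from an alternative start is secreted into plasma, where it clears actin. Gsn stood at 43810, 23680 and 23890 CPM in control pSSPCs and at 22730, 12660 and 12460 CPM in CKO pSSPCs. All 3 CKO libraries were below all 3 control libraries, and the pairs differed by nearly the same amount, with log2 ratios of -0.95, -0.90 and -0.94. In gpSSPCs the control libraries held 7570, 8054 and 7572 CPM and the CKO libraries 7271, 7945 and 7622 CPM, which overlapped. A small gene on the same strand, Gm43128, overlaps Gsn, so some reads could not be assigned between them.

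Apod and Clec3b encode secreted carriers and binding proteins. Apod, a lipocalin that binds arachidonic acid and other small lipids, was at 2002, 3534 and 3955 CPM in control pSSPCs and 970.9, 1663 and 1836 in CKO pSSPCs. The groups did not overlap, and the fitted log2 fold change was -1.08 (SE 0.51), a 2.11-fold lower level. Clec3b encodes tetranectin, a C-type lectin domain protein that binds plasminogen. It was at 320.1, 218.8 and 230.9 CPM in control and 191.5, 168 and 163.6 CPM in CKO pSSPCs, again without overlap but with a smaller log2 fold change of -0.62 (SE 0.53). In gpSSPCs neither gene separated the genotypes: Apod was at 569.2, 1046 and 1043 CPM in control and 594.4, 993.6 and 988.7 in CKO libraries.

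Myoc encodes myocilin, a secreted glycoprotein with an olfactomedin domain best known from the eye. Its pSSPC levels were 1443, 2570 and 2777 CPM in control and 577.6, 1081 and 1116 CPM in CKO libraries, a log2 fold change of -1.30 (SE 0.53), or 2.46-fold lower. Myoc was also lower in all 3 gpSSPC pairs, by a smaller amount. There the control libraries held 224.7, 618.2 and 616.4 CPM and the CKO libraries 190.2, 509.3 and 510.2 CPM, with log2 ratios of -0.24, -0.28 and -0.27. Myocos lies antisense to Myoc, and whether the counting used strand is not given in the sources used here, so reads of the pair cannot be told apart. The same limit holds for Slurp1 and its antisense neighbour Them6.

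Gpx3 and Gstm1 both use glutathione. Gpx3 is the secreted selenoprotein peroxidase of plasma, and Gstm1 a cytosolic transferase that conjugates glutathione to electrophiles. Gpx3 was at 14940, 8342 and 8778 CPM in control pSSPCs and 7119, 7511 and 7828 in CKO pSSPCs. The groups did not overlap, but the size of the difference rested on replicate 1, whose log2 ratio was -1.07 against -0.15 and -0.17 in the other pairs. Gstm1 was at 482.2, 1682 and 1796 CPM in control and 175, 859.5 and 949.1 CPM in CKO pSSPCs. Its groups overlapped because replicate 1 was low in both genotypes, yet each pair was lower in CKO, by log2 ratios of -1.46, -0.97 and -0.92. Gstm1 has close paralogs, and counts between them are uncertain.

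Serpinf1 and Cst3 encode secreted inhibitors. Serpinf1 encodes PEDF, a serpin without protease inhibition of its own that restrains blood vessel growth, and Cst3 encodes cystatin C, an inhibitor of cysteine proteases such as cathepsins. Serpinf1 was at 1803, 2517 and 2790 CPM in control pSSPCs and 813.5, 1531 and 1613 CPM in CKO pSSPCs, a log2 fold change of -0.90 (SE 0.50). Cst3 was at 10450, 10300 and 10020 CPM in control and 7538, 8346 and 8262 CPM in CKO pSSPCs. This was the smallest fitted difference of the 10, a log2 fold change of -0.38 (SE 0.38), although the CKO libraries all lay below the controls. In replicates 2 and 3 the Cst3 log2 ratios of -0.3 and -0.28 were larger in size than those of Gpx3 (-0.15 and -0.17).

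The largest differences, by fitted value and in each same-numbered pair, were those of Inmt and Slurp1. The fitted size of both moved widely when a replicate 1 library was left out, as given in the last section. Inmt encodes a methyltransferase of indoleamines such as tryptamine, and Slurp1 a small secreted protein of the Ly6/uPAR family that acts on nicotinic receptors in skin. Inmt was at 139.3, 419.1 and 464.1 CPM in control pSSPCs and 25.29, 121.5 and 122.5 CPM in CKO pSSPCs, a log2 fold change of -1.98 (SE 0.85), or 3.93-fold lower. Slurp1 was at 369.8, 69.38 and 78.04 CPM in control and 88.26, 17.99 and 19.06 CPM in CKO pSSPCs, a log2 fold change of -2.08 (SE 0.95). For Slurp1 the groups overlapped, because replicate 1 of CKO lay above replicates 2 and 3 of control, while the log2 ratios of the pairs were -2.06, -1.92 and -2.01.

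**Figure D1:**
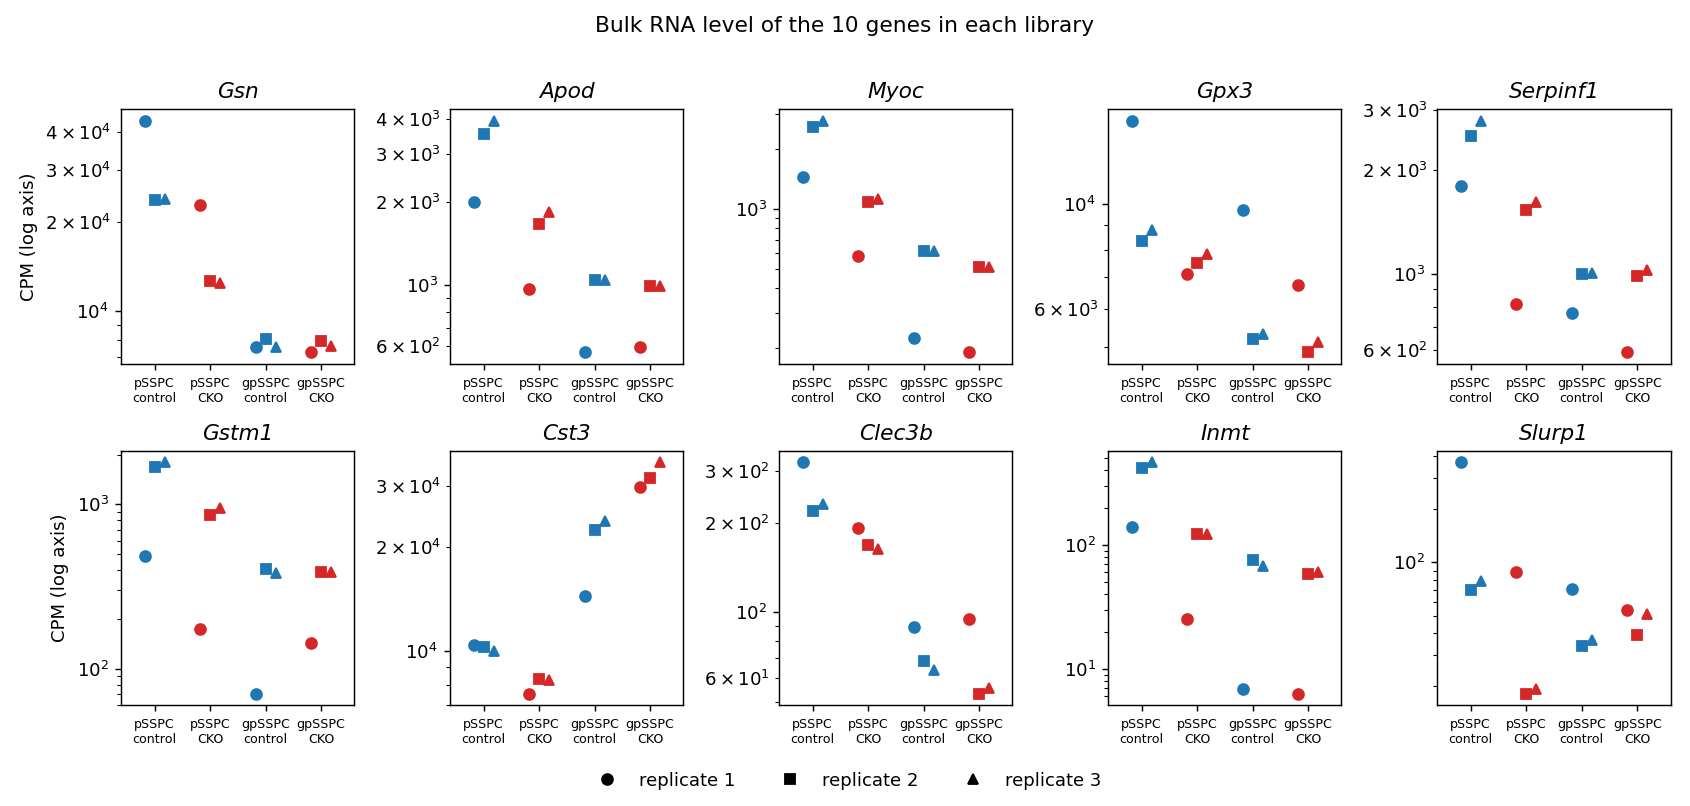
Bulk RNA level of each member in every library, in CPM on a log axis, with 1 panel per gene, the 4 groups along the x axis and a marker shape for each replicate number. In pSSPCs the CKO libraries lie below all control libraries for every member but Gstm1 and Slurp1, and in gpSSPCs the 2 genotypes overlap for every member but Cst3.

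Over all 10 members the pSSPC log2 fold change ran from -2.08 to -0.38 with a median of -0.99, against -0.02 over the 11878 genes tested. All 10 were lower in CKO, as were 51.3% of genes tested. Every same-numbered pair was lower for all 10, a pattern that 21% of genes tested had, and the 3 libraries of each genotype did not overlap for 8 of 10, against 8.56% of genes. The choice of members fixes these counts, so nothing is read from them. edgeR's quasi-likelihood test with Benjamini-Hochberg adjustment called 0 of 11878 genes at n = 2 (0%), with 142 at an unadjusted p under 0.05, and DESeq2 called 0 as well. By thresholds like those of the study, which ask for a log2 fold change beyond 0.25 in either direction at an unadjusted p below 0.05, 111 genes were lower in CKO (0.935%) and 31 higher (0.261%). With the replicate number as a block, the fit called 26 genes lower (0.219%) and 12 higher (0.101%). No calls are given for the members, since this contrast chose them. That fit leaves 1 residual degree of freedom per gene before the spread is shared across genes.

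Other abundant genes were also lower in CKO pSSPCs, which is given as a description because the members were chosen on this contrast. There were 997 genes whose control pSSPC CPM was at least that of the lowest member (172 CPM, not scaled for length). Of these, 268 (26.9%) had a log2 fold change at or below -0.38, the members' highest value, and 258 of the 268 are not members. The share at or below the members' median of -0.99 was not counted. Together the 10 members took 6.98%, 5.61% and 5.56% of counts in control pSSPCs and 4.16%, 3.76% and 3.66% in CKO pSSPCs. Gsn alone took 4.03%, 2.49% and 2.43% in control and 2.35%, 1.4% and 1.33% in CKO. In gpSSPCs the shares were 3.31%, 3.87% and 3.91% in control and 4.35%, 4.62% and 4.77% in CKO. There the CKO share was the larger, in the libraries in which Cst3 was higher.

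Because the members rest on sorted pools, fewer cells of a type and less RNA per cell cannot be told apart. Marker lists of cell types were summed in each pSSPC library beside the members. The 9 markers of periosteal mesenchymal cells (PMSC) summed to 33060, 35410 and 38780 CPM in control and 23090, 43090 and 48630 in CKO, none at 0. The most abundant was Dcn in the control libraries and Prg4 in the CKO libraries. Prg4, which encodes the joint lubricant lubricin, stood at 2261, 8464 and 8828 CPM in control and 7337, 25620 and 29880 in CKO. Dcn, the collagen-binding proteoglycan decorin, differed in the opposite direction, with 13510, 17750 and 20170 CPM in control and 6834, 10780 and 11850 in CKO. Of the 9 PMSC markers, 7 had a fitted log2 fold change below 0, with a median of -0.59, so the sum does not show most of them. The gene that leads each of the next lists is named by its mean over the 12 libraries. The 9 chondrocyte markers, led by Col2a1, summed to 9080, 5548 and 5090 CPM in control and 8352, 4522 and 4331 in CKO. The 7 osteoblast (OB) markers, led by Ibsp, held 15390, 4972 and 4718 against 15880, 4917 and 4796. Tenocyte markers, led by Fmod, were lower in every CKO library, with sums of 803.1, 789.5 and 815.4 against 640.6, 660.3 and 695.6 CPM. Endothelial markers summed to 118.1, 132.5 and 129.9 against 125.4, 181.5 and 183.9 CPM. Erythroid markers, led by Hbb-bs, summed to 23.62, 1862 and 1813 in control and 155.4, 1253 and 1225 in CKO. Replicate 1 thus held more OB transcripts and fewer erythroid ones than replicates 2 and 3 in both genotypes. By the study's methods the cells were stained for CD31, CD45 and Ter119, which mark endothelial, blood and erythroid cells, before the sort. The part of these shifts in the members' levels was not tested.

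The gpSSPC libraries give the genotype comparison that the choice of genes did not use. None of the 10 members was called there: edgeR called 0 of 12041 genes (0%), 57 had an unadjusted p under 0.05, and every member had an adjusted p of 1 by edgeR's quasi-likelihood test. DESeq2 called 1 gene. The members' log2 fold changes ran from -0.34 to 0.77 with a median of -0.06, against 0.002 over all genes, and 8 of 10 were below 0, as were 49.8% of genes. That count was 6 with the replicate block and 3 without CKO replicate 1. The study's thresholds found 20 genes lower (0.166%) and 37 higher (0.307%), with no member among them. With the replicate block they found 208 lower (1.73%) and 255 higher (2.12%), among the latter Cst3 (adjusted p 0.156 by edgeR). Gsn had a log2 fold change of -0.02 (SE 0.48), Apod -0.02 (SE 0.52), Clec3b -0.04 (SE 0.52) and Slurp1 -0.07 (SE 0.56). With such errors a moderate change could not be detected. The 3 members lower in all gpSSPC pairs were Myoc, Gpx3 and Inmt, a pattern of 20.7% of genes. None had CKO libraries all below the controls, which 8.24% of genes had.

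Cst3 had the highest log2 fold change of the 10 in gpSSPCs. It stood at 14430, 22410 and 23790 CPM in control gpSSPCs and 29940, 31690 and 35240 CPM in CKO gpSSPCs. All 3 CKO libraries lay above all 3 controls, which 6.49% of genes did, and the pair log2 ratios were 1.05, 0.50 and 0.57. The fit gave a log2 fold change of 0.77 (SE 0.55), a 1.70-fold higher level that did not pass (edgeR p 0.198, adjusted p 1). With the replicate block the value was 0.81 (SE 0.20) with an edgeR p of 3.37e-04, and the adjusted p of 0.156 did not pass either. Chondrocyte markers differed in the same libraries: they summed to 39540, 28640 and 28680 CPM in control gpSSPCs and 21250, 15540 and 15450 in CKO, with Col2a1 at 25290, 15460 and 15460 against 11360, 6425 and 6301. With the block Col2a1 fell by 1.21 on the log2 scale (edgeR adjusted p 0.00169). Col9a1 (-1.36), Col9a3 (-0.96) and Matn3 (-1.19) were also called lower in that fit, which called 7 genes lower (0.0581%) and 5 higher (0.0415%). Erythroid markers in gpSSPCs summed to 20.97, 6588 and 6716 CPM in control and 17.7, 2805 and 2994 in CKO. Endothelial markers summed to 43.65, 46.2 and 44.39 CPM in control and 118.8, 62.97 and 66.09 in CKO, and myeloid markers to 17.55, 38.34 and 35.47 against 51.39, 47.13 and 63.44. Basophil and mast cell markers were at 0 in both replicate 1 libraries and summed to 24.83 and 19.87 CPM in control and 112.5 and 135.3 in CKO replicates 2 and 3. The part of these shifts in the Cst3 value was not tested.

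**Figure D2:**
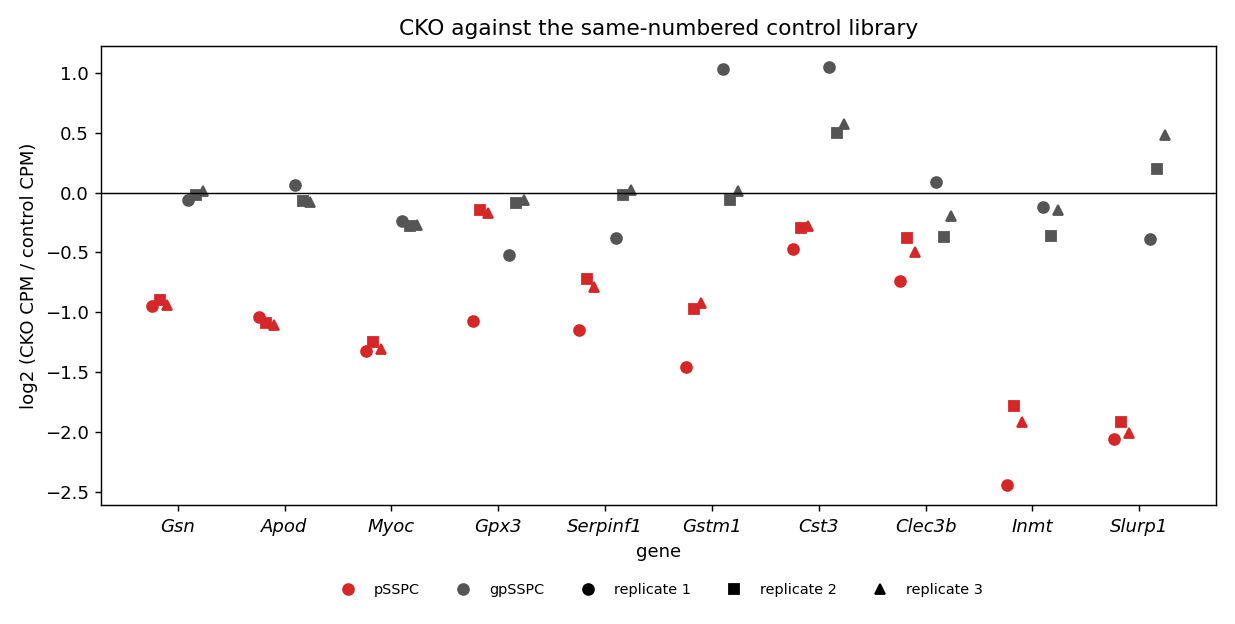
Log2 ratio of CKO to control CPM for each same-numbered pair of bulk libraries (y axis) and each member (x axis), with pSSPC pairs in red, gpSSPC pairs in grey and a marker shape for each replicate number. All pSSPC points lie below 0, from -2.44 for Inmt to -0.15 for Gpx3, while gpSSPC points lie on both sides of 0 and Cst3 lies at 0.50 to 1.05.

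Most members also had higher levels in pSSPCs than in gpSSPCs, which is given with no test because the pSSPC level was part of their choice. In control libraries 9 members were higher in pSSPCs than in gpSSPCs in every pair. Inmt had the widest gap, with fitted log2 3.44, and per-pair folds of 19, 5.53 and 6.83. Gstm1 followed at 2.46, Myoc at 2.39 and Gsn at 2.07, and Gpx3 had the narrowest gap at 0.66. Cst3 was the exception, with a fitted log2 of -0.84 and the higher level in gpSSPCs in all 3 pairs. In CKO libraries the order changed for Slurp1, whose pSSPC to gpSSPC log2 ratios were 0.71, -1.09 and -1.39. The Inmt gap in CKO was smaller than in control, with log2 ratios of 1.93, 1.05 and 1.00.

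Within the set, levels moved together to different degrees over the 8 RNA samples, which share populations, genotypes and replicate sets. Apod and Myoc had a Pearson r of 0.99 on log2 CPM, Apod and Serpinf1 0.98, and Myoc and Inmt 0.97. Cst3 ran opposite to Clec3b (-0.83) and Gsn (-0.73). Among 3071 genes with a mean of at least 50 CPM, those most like the mean of the members over the 8 samples were Fbln1 (r 0.991), Pdlim2 (0.983), Ece1 (0.981), Akap12 (0.976) and Asap1 (0.975). Fbln1 encodes fibulin-1, a secreted matrix glycoprotein, Ece1 the enzyme that activates endothelin, and Pdlim2 and Akap12 adaptors of the actin cytoskeleton and of protein kinase A. Fbln1 stood at 295.7, 381.3 and 411.4 CPM in control pSSPCs and 119.2, 195.1 and 197.9 in CKO pSSPCs, and at 74.04, 126.3 and 134.8 against 67.38, 121.2 and 115.5 in gpSSPCs. Akap12 had the widest pSSPC difference of these 5, from 105.1, 192.8 and 225 CPM to 48, 51.2 and 60.54. These r values are a description, as the list of members was itself chosen for this pattern.

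Relatives of the members were counted from 8 gene lists that exclude the members, and edgeR called no gene of any of these lists in either population without the block. Of 38 genes of glutathione and peroxide metabolism, 36 were tested in pSSPCs and 20 were below 0, with a median log2 fold change of -0.12. Gsta4, a transferase that removes lipid aldehydes, was at 288.3, 51.57 and 64.77 CPM in control and 59.36, 23.25 and 23.48 in CKO pSSPCs, and its log2 fold change of -2.09 (SE 0.87) met the study's thresholds but not the adjusted test. Selenop, the plasma selenium carrier, had -1.38 (SE 0.74) and Gclc, the rate-limiting enzyme of glutathione synthesis, -1.90 (SE 1.17). The Gclc value came from replicate 1 (114.8 and 20.65 CPM), since replicates 2 and 3 were higher in CKO, at 7.81 and 9.90 against 11.6 and 13.4 CPM. The gpSSPC median of the list was 0.05.

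Other protease inhibitors lay on both sides of 0. Of 18 serpins, cystatins and tissue inhibitors of metalloproteinases, 16 were tested and 5 were below 0 in pSSPCs, with a median of 0.24 (0.11 in gpSSPCs). Timp1, which inhibits metalloproteinases, stood at 177.6, 264.7 and 256.3 CPM in control pSSPCs and 424.8, 692.1 and 712.9 in CKO pSSPCs. Its log2 fold change of 1.37 (SE 0.53) met the study's thresholds. By adjusted p it was called higher only in the blocked fit (1.35, edgeR adjusted p 0.0174). Serping1, the complement C1 inhibitor and the most abundant of the list, was at 3264, 2753 and 3025 CPM in control and 2739, 2067 and 2261 in CKO pSSPCs, lower in all 3 pairs. The summed level of the list was 7275, 6702 and 7137 CPM against 6880, 6476 and 6784. Serpinb8 had -2.51 (SE 1.35), and Serpinb9, which inhibits granzyme B, 0.90 (SE 1.28).

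Lipid carriers other than Apod had values on both sides of 0, with 7 of 11 tested below 0 and a median of -0.04 in pSSPCs and -0.11 in gpSSPCs. Apoe, the apolipoprotein of lipid transport, was at 1314, 1228 and 1196 CPM in control and 879, 1532 and 1613 in CKO pSSPCs. Its gpSSPC libraries held 613.3, 1116 and 1198 CPM in control and 1176, 2068 and 2272 in CKO, a log2 fold change of 0.93 (SE 0.55). Clu, encoding the chaperone clusterin and the most abundant of the list by its mean over all libraries, was at 289.2, 1203 and 1220 CPM in control and 230.7, 863.4 and 863.1 in CKO pSSPCs. In gpSSPCs it was at 451.1, 2027 and 2132 against 244.4, 3906 and 4288, so replicate 1 differed in direction from replicates 2 and 3. Pltp, which transfers phospholipids, had 1.22 (SE 1.46) in pSSPCs. Apoc1 was counted only in replicate 1 libraries and had 3.92 (SE 2.85) in pSSPCs.

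Relatives of Gsn had fitted values below 0 in pSSPCs for 5 of 5 tested, with a median of -0.58 (0.01 in gpSSPCs). Their summed level was 1115, 854.8 and 916.2 CPM in control and 831.5, 831.6 and 937.3 in CKO. Flii was at 63.53, 38.44 and 49.12 CPM in control and 23.23, 27.95 and 34.77 in CKO pSSPCs, with a log2 fold change of -0.97 (SE 0.82). Svil, encoding supervillin, was at -0.46 (SE 0.77) in pSSPCs and 1.07 (SE 0.57) in gpSSPCs, and Avil, encoding advillin, at -2.78 (SE 1.95) in pSSPCs. Both were higher in CKO pSSPCs in replicates 2 and 3, with Svil at 81.26 and 84.97 CPM in control and 91.6 and 93.37 in CKO. Of the olfactomedin family of Myoc, 6 of 7 were tested and 4 were below 0 (median -0.20, 0.27 in gpSSPCs). Olfml2a had -2.03 (SE 0.86) and met the study's thresholds, but its control libraries of 188.2, 34.69 and 44.96 CPM and CKO libraries of 27.36, 26.29 and 30.36 CPM differed widely only in replicate 1. Olfm2 had -2.56 (SE 1.53) and Olfml1 -0.12 (SE 1.15).

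The Ly6/uPAR family of Slurp1 had 8 of 12 genes tested, 3 below 0 and a median of 0.05 (-0.09 in gpSSPCs). Ly6e was at 307.1, 777.6 and 823.5 CPM in control and 451.1, 469.9 and 483.1 in CKO pSSPCs, with a log2 fold change of -0.26 (SE 0.56). Cd59a, a complement inhibitor, had -1.97 (SE 1.40), again from replicate 1 (48.1 and 5.16 CPM), while replicates 2 and 3 were higher in CKO. Plaur, the urokinase receptor, had 1.35 (SE 1.12). Other genes with C-type lectin domains had 4 of 5 tested, 2 below 0 and a median of 0.04 (0.05 in gpSSPCs). Some of the list encode membrane proteins, Clec14a and Clec1a among them. Clec11a, a bone growth factor, was at 0.11 (SE 0.64), Clec14a at -2.71 (SE 1.55) and Clec1a at 0.26 (SE 1.30).

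A list of 36 other secreted genes of fibroblasts was tested whole, of which 26 were below 0 in pSSPCs with a median of -0.34, against 16 and a median of 0.05 in gpSSPCs. Igfbp6, which binds insulin-like growth factor II, was at 10870, 4669 and 4926 CPM in control and 3833, 2500 and 2589 in CKO pSSPCs, a log2 fold change of -1.31 (SE 0.50). Cxcl14, a chemokine, was at 1061, 1094 and 974.3 CPM in control and 2044, 2036 and 1771 in CKO, at 0.91 (SE 0.43), and Prg4 at 1.71 (SE 0.74). Igfbp6 and Prg4 met the study's thresholds without the block. In the blocked fit Igfbp6, Dcn and Penk, which encodes proenkephalin, were called lower and Prg4 and Cxcl14 higher. The secreted genes of these cells thus went in both directions.

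In the single-cell libraries members were read per class of cells, with 1 library per genotype, so there was no test and intervals cover counting error only. The 16-week libraries held 2088 control and 2373 CKO barcodes, of which 2068 and 2362 cells were kept, with a median of 1430 and 1267 unique molecular identifiers (UMIs). They shared 10 barcodes. Z24 had 70 UMIs in the library labelled control and 11 in that labelled CKO. The study's methods give the cell numbers of the genotypes in the opposite order from the labels, and the labels were used for every genotype comparison here. Clusters were rebuilt here and named from marker lists, and a cluster of 125 cells led by Prg4, Igfbp6 and Clec3b was PMSC-like, with Ly6a and Gsn also among its 10 leading genes. The others were BMSC-like (bone marrow stromal, 1736 cells led by Ebf3, C4b and Epas1), OB-like (363, led by Bglap2, Col1a1 and Car3), chondrocyte-like (81, led by 3110079O15Rik, Serpina1a and Serpina1d), erythroid-like (87, led by Hba-a2, Hbb-bs and Hba-a1) and pericyte-like (49, led by Acta2, Tagln and Rgs5). A cluster of 1989 cells led by Wisp2, Il1rn and Nnmt stayed unnamed.

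Several members marked the PMSC-like class in the control library. Gsn was at 13000 CPM of UMIs there against 1600 in pericyte-like (40 UMIs), 962 in OB-like, 412 in chondrocyte-like and 121 in BMSC-like cells. Clec3b was at 1220 CPM in PMSC-like cells and had 1 UMI in all control BMSC-like cells. Serpinf1 was shared with the OB-like class, at 1710 and 1730 CPM, and Apod with the BMSC-like class, at 631 and 220. Gpx3 and Cst3 had high counts in several classes. Gpx3 was at 10100 CPM in PMSC-like and 9830 in BMSC-like cells, and Cst3 at 7880 in PMSC-like and 28100 in chondrocyte-like cells. The unnamed cluster of the control library held Gpx3 at 10600 CPM, Cst3 at 7510, Gstm1 at 409 and Apod at 219. Erythroid-like cells held 3490 CPM of Gpx3 and 2690 of Cst3 in control and 7180 and 5650 in CKO. They also held Apod at 48.3 CPM in control and 331 in CKO, and Gstm1 at 164 and 402. Free RNA could add to the levels of these genes in every class, and its part was not tested. The same cells held 29 CPM of Gsn and 0 UMIs of Clec3b in control. As the clusters were built from the same cells, these levels describe the classes and test nothing.

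Within the 84 control and 41 CKO PMSC-like cells, Gpx3 was lower in CKO beyond counting error. It was at 10100 CPM in control (1864 UMIs) and 5800 in CKO (433 UMIs), a CKO to control ratio of 0.576 (95% exact interval 0.518 to 0.64). The CKO level lay below the 7180 CPM of the erythroid-like cells of that library. Apod was at 631 and 482 CPM, a ratio of 0.763 (0.51 to 1.12), which its counting error did not separate from equal levels. Slurp1 had 3 and 1 UMIs and Inmt 3 and 2, too few to compare. Gsn was at 13000 and 14300 CPM, a ratio of 1.1 (1.02 to 1.18), so the lower bulk level was not seen within this class. Myoc was higher in CKO, at 897 against 237 CPM (67 and 44 UMIs), a ratio of 3.78 (2.54 to 5.66).

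The remaining members lay close together, with ratios of 1.1 (0.894 to 1.35) for Serpinf1, 1.08 (0.745 to 1.54) for Gstm1, 1.03 (0.935 to 1.13) for Cst3 and 1.06 (0.831 to 1.36) for Clec3b. Marker content of the class differed between the libraries beside these values. PMSC markers summed to 33300 CPM in control and 16700 in CKO, with Dcn at 16300 and 10600. OB markers summed to 3080 and 8480, BMSC markers to 6480 and 10600 and tenocyte markers to 513 and 1710, and Ly6a was at 1590 and 964. Median UMIs per cell were 1803 and 1602. The part of this difference in the ratios was not tested, and age also differed from the bulk libraries, 16 against 20 weeks.

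**Figure D3:**
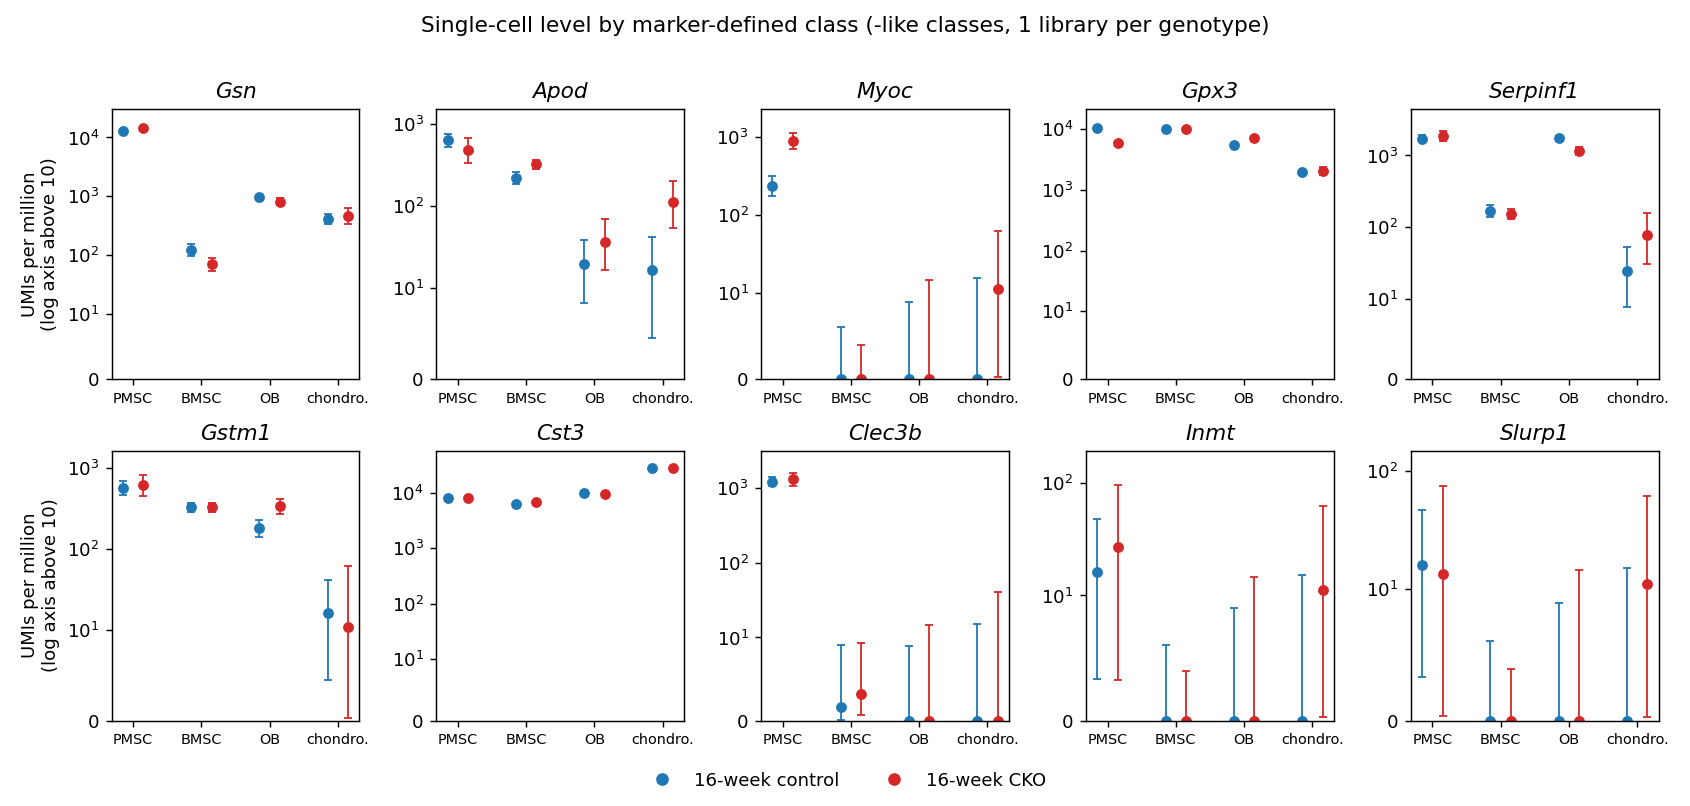
Level of each member in CPM of UMIs (y axis, log above 10) in PMSC-like, BMSC-like, OB-like and chondrocyte-like cells (x axis) of the 16-week control (blue) and CKO (red) libraries, with exact 95% Poisson intervals that cover counting error only. Gsn, Clec3b and Myoc lie highest in PMSC-like cells, Cst3 in chondrocyte-like cells, and Gpx3 lies at 10100 and 5800 in control and CKO PMSC-like cells.

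Some members were as high or higher in other classes. In BMSC-like cells Gpx3 was at 9830 CPM in control and 10000 in CKO, a ratio of 1.02 (0.989 to 1.06), unlike the PMSC-like class. Gsn was at 121 and 69.6 there, a ratio of 0.575 (0.405 to 0.813), and Apod at 220 and 320, a ratio of 1.46 (1.19 to 1.8). The CKO level of Apod lay below the 331 CPM of the erythroid-like cells of that library. In OB-like cells Serpinf1 was at 1730 and 1160, a ratio of 0.668 (0.581 to 0.767). Gpx3 and Gstm1 went the other way there, with ratios of 1.29 (1.21 to 1.37) and 1.86 (1.35 to 2.58). Their CKO levels of 7070 and 340 CPM lay below the 7180 and 402 CPM of the erythroid-like cells of that library. Cst3 of chondrocyte-like cells was at 28100 and 27700, a ratio of 0.987 (0.942 to 1.03), so the higher bulk level in CKO gpSSPCs was not seen in this class. The class held 60 control and 21 CKO cells with 17 and 6 Nt5e UMIs. It was not sorted on CD73, and its mice were younger than those of the bulk libraries.

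At 8 weeks Z24 was at 17.3 CPM of UMIs in the Prx1-Cre and 43.2 in the Osx-Cre library, against 19 in the 16-week control and 3.13 in the 16-week CKO. There, 239 cells led by Prg4, Igfbp6 and Tppp3 were PMSC-like, 163 from the Prx1-Cre and 76 from the Osx-Cre library, which shared 4 barcodes over all cells. In the Prx1-Cre cells Gsn was at 8970 CPM, Gpx3 at 4290, Cst3 at 8320, Serpinf1 at 1430, Clec3b at 675, Apod at 505 and Myoc at 501. Slurp1 was at 156 CPM (35 UMIs). The 16-week control and CKO cells held 3 and 1 UMIs of Slurp1, too few to give a level. The Osx-Cre cells held 0 UMIs of Apod, Clec3b, Inmt and Slurp1, with Gsn at 749 CPM and Myoc at 96.3. A count of 0 does not show absence, as 3 counts of the total in these cells would equal 32.1 CPM. Gpx3 and Cst3 were not lower there, at 5300 and 9960. These cells also had 0 UMIs of Ly6a and a PMSC marker sum of 7450 CPM against 35000 in Prx1-Cre cells, and their OB markers summed to 16800 against 10000. The cells that carry the class name therefore differ between the libraries, and Cre driver and library cannot be told apart.

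ATAC libraries held 12250713 to 46756821 filtered tags and 59209 to 101606 peaks, called in each library on its own. Peak height at a promoter is given as pileup scaled to 1000000 tags, with 0 where no peak was called. With 3 libraries against 3 the exact two-sided permutation test cannot go below p = 0.1, so no ATAC comparison could pass 0.05. Peak numbers and depth both differed between libraries over the whole genome. In pSSPCs, controls had 63516, 59209 and 79724 peaks from 13932350, 12250713 and 26371117 tags, and CKO libraries 72375, 84042 and 101606 peaks from 17894469, 15115534 and 46756821 tags, so the peak numbers overlapped and depth was higher in CKO in every pair. The gpSSPC controls had 98549, 93028 and 88095 peaks from 19271923, 18009251 and 40668538 tags and CKO 84100, 76856 and 68961 peaks from 12941435, 15154444 and 39801835 tags. Every CKO peak list of gpSSPCs was thus shorter than every control list, and depth was lower in CKO in every pair.

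The Inmt promoter was the member whose accessibility separated the genotypes in pSSPCs. Its peak, at chr6:55174873-55175326 in control replicate 1, spans the stretch printed above and the annotated start. Scaled pileup was 2.153, 2.204 and 1.744 in control and 1.01, 1.06 and 0.663 in CKO pSSPCs. All CKO libraries lay below all controls, with means of 2.03 ± 0.252 and 0.909 ± 0.215 (SD, n = 3), a ratio of 0.447 and an exact permutation p of 0.1, the smallest possible. Such a separation downward was seen at 0.839% of promoters and upward at 3.33%. No gpSSPC library had a peak there, and a promoter peak in all 6 pSSPC and 0 of 6 gpSSPC libraries was found at 0.737% of promoters with a peak in some library. Summed pileup over Inmt and 10 kb on each side was also lower in CKO pSSPCs, with means of 6.18 ± 0.185 and 4.20 ± 1.41 (exact permutation p 0.1, n = 3, a pattern of 1.19% of genes).

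Clec3b and Apod, like Inmt, had higher promoter peaks in pSSPCs than in gpSSPCs, and their genotypes overlapped in pSSPCs. The Clec3b promoter was at 5.38, 6.86 and 3.87 in control and 3.35, 4.43 and 2.22 in CKO pSSPCs, a ratio of 0.621 (exact permutation p 0.2, n = 3). Each same-numbered pair was lower in CKO, and replicate 3, the most deeply sequenced, was the lowest in both genotypes. In gpSSPCs 1 of 6 libraries had a peak there, at 0.882. The Apod promoter was at 4.38, 3.92 and 3.30 in control and 2.74, 4.17 and 2.12 in CKO pSSPCs (exact permutation p 0.3, n = 3), and at 1.71, 0 and 0.861 against 1.08, 0 and 0 in gpSSPCs. For both genes every control pSSPC library lay above every control gpSSPC library (exact permutation p 0.1, n = 3), as did 13.4% of promoters.

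At Gsn the tissue comparison differed among the starts. The promoter of its first start had means of 5.12 ± 0.472 in control pSSPCs and 5.30 ± 1.66 in control gpSSPCs (SD, n = 3). The second start had no peak in any pSSPC library and 2.49, 2.67 and 1.60 in control gpSSPCs. The share of promoters that were higher in gpSSPCs was not counted. The internal start, whose upstream bases are printed above, was at 6.53, 7.35 and 4.70 in control pSSPCs and 3.68, 4.22 and 2.34 in control gpSSPCs. These did not overlap, and 13.4% of promoters were higher in pSSPCs in this way. Genotype did not separate any of the Gsn starts in pSSPCs: the internal start was at 5.20, 7.67 and 3.61 in CKO (exact permutation p 0.8, n = 3).

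**Figure D4:**
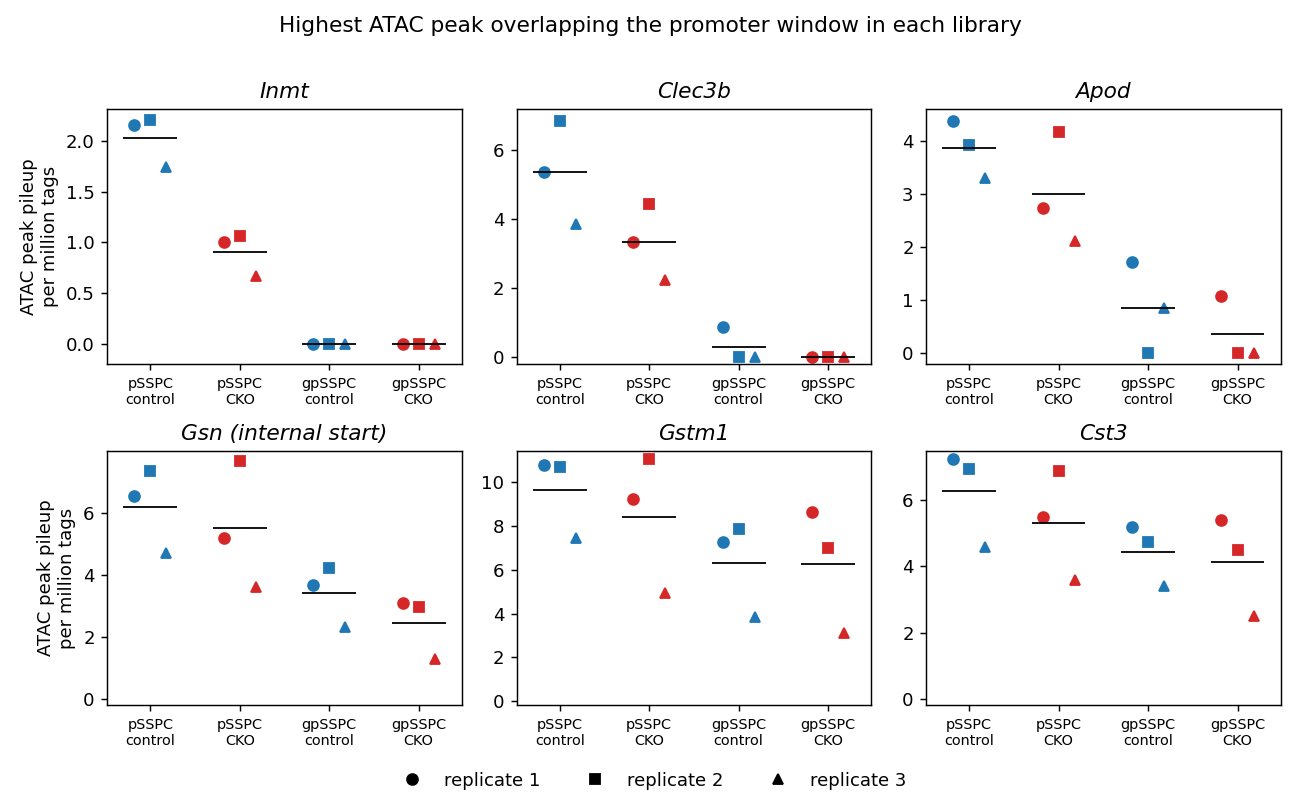
Height of the highest ATAC peak overlapping a member's promoter window, in pileup scaled to 1000000 tags (y axis), for the 4 groups (x axis), with a marker shape for each replicate number and 0 where no peak was called. CKO lies below control in all pSSPC libraries at Inmt alone (0.663 to 1.06 against 1.744 to 2.204), and Clec3b and Apod lie higher in pSSPCs than in gpSSPCs.

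Most of the remaining promoters had peaks in both tissues. Gpx3, Gstm1, Cst3 and the first and the internal Gsn starts had a peak in all 12 libraries, as had 37.4% of promoter windows. Gpx3 was at 7.90, 7.02 and 5.20 in control and 4.75, 7.67 and 3.87 in CKO pSSPCs, and Cst3 at 7.25, 6.94 and 4.59 against 5.48, 6.88 and 3.59, both with overlap. Each same-numbered pair was lower in CKO for Cst3, as for Clec3b, and the share of promoters with that pattern was not counted. The Myoc window had no peak in any of the 12 libraries, although its RNA reached 2777 CPM and its window holds the TATA box letters, and the 2 to 3 peaks of the surrounding region in pSSPCs lay elsewhere. Serpinf1 had a promoter peak in 1 of 3 control and 1 of 3 CKO pSSPC libraries and in no gpSSPC library. Slurp1 had none in 2 of 6 pSSPC and 1 of 6 gpSSPC libraries, with 0, 1.22 and 1.90 in control and 1.12, 0 and 1.22 in CKO pSSPCs.

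Over the 10 genes with 10 kb on each side, peaks numbered 50, 46 and 59 in control and 51, 56 and 59 in CKO pSSPCs, with means of 51.7 ± 6.66 and 55.3 ± 4.04 (SD, n = 3). No member's peak number or summed pileup was higher in all CKO than in all control pSSPC libraries, and none but the Inmt pileup lower, where 6.46% of genes had more peaks in every CKO library and 0.181% fewer, and 7.04% had more summed pileup. In gpSSPCs they numbered 56, 49 and 52 against 50, 45 and 41. Clec3b was the member whose peak number separated the genotypes in gpSSPCs, with 6, 1 and 3 peaks in control and 0 in each CKO library (exact permutation p 0.1, n = 3), where 6.9% of genes had fewer peaks in all CKO libraries and 0.177% had more. Summed peak length in gpSSPCs was lower in every CKO than in every control library for Clec3b, Gsn, Serpinf1 and Slurp1 (exact permutation p 0.1 each, n = 3). Control and CKO means were 7518 and 6384 bases at Gsn, 4036 and 3572 at Serpinf1 and 3699 and 2927 at Slurp1. The share of genes with that pattern was not counted. All CKO peak lists of gpSSPCs were shorter than the control lists, and the part of this in the Clec3b count and in these lengths was not tested. The summed pileup of Clec3b was lower as well, a pattern of 1.57% of genes. Its gpSSPC RNA was at 89.02, 68.51 and 63.85 CPM in control and 94.79, 53.07 and 55.51 in CKO, which overlapped.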

How the data were processed

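Bulk RNA libraries were sequenced by a Smart-seq2-type protocol with UMI barcodes. Per the study's methods the authors trimmed adapters, aligned reads with STAR to mm10, removed duplicates by UMI and deposited HTSeq counts per gene, with versions and strand setting not given in the sources used here. Single-cell counts are deposited Cell Ranger UMI counts per gene and cell (filtered barcodes, mm10). The ATAC peak lists were deposited per library by the authors from Bowtie2 and MACS2 calls, with pileup signal, fold enrichment ratio and −log10 p and q values. Pileup was used as height and scaled here to 1000000 filtered tags, while fold enrichment and −log10 columns were used only for a stricter peak threshold. Submitters' notes also name bedtools, DESeq2 and HOMER.

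The members and lists were chosen with earlier results of these data known. Replicates 2 and 3 were summed (n = 2). edgeR 4.0.16 (R 4.3.3; TMM, filterByExpr, quasi-likelihood test, Benjamini-Hochberg threshold 0.05) was fitted per population on all genes, without covariates. Levels are CPM on TMM-scaled library sizes, and pair ratios add 0.5 CPM. Of 53801 gene identifiers, 181 had no symbol. Replicate numbers paired the samples: deviations of same-numbered control and CKO libraries from their group means correlated at 0.58, 0.56 and 0.55 in pSSPCs and 0.60, 0.57 and 0.57 in gpSSPCs over 10408 genes, so blocked values stand beside results they change. In single-cell data cells with at least 200 genes were kept and integrated by age with Seurat 5.3.0 (2000 variable features without the 14 genes compared, 22 and 20 components, resolutions 0.15 and 0.14). A cluster was named where at least 3 markers, each in at least 25% of its cells, led with a mean log2 fold over 0.5. No doublet caller was run. Named genes were the 10 members, Z24, the sort and tissue markers, for each list genes called or otherwise up to 3 with the lowest p and at least 5 CPM, the 5 genes most like the members' mean, and 3 leading genes per cluster. Alternatives were other normalization (RLE), DESeq2 1.42.0, no filter, 4 groups in 1 fit, 3 libraries per group, the block, each library left out, other cell filters and clusterings, and other ATAC flanks and thresholds. Scripts were tested on simulated data.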

Additional observations from a re-analysis of the deposited data

Results flagged for a closer look

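Cst3 was flagged because its genotype difference had opposite directions in the 2 populations: every same-numbered pair was lower in CKO in pSSPCs (log2 fold change -0.38) and higher in CKO in gpSSPCs (0.77). The difference between these values was not tested. The gpSSPC value was not called by edgeR with or without the replicate block, and the pSSPC value is a description, since the gene was chosen on it.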

How the results depend on the processing

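In pSSPCs all 10 members stayed lower in CKO when any 1 library was left out, but the size moved with replicate 1: Gsn ran from -1.41 to -0.43 (without CKO and without control replicate 1), Apod from -1.46 to -0.69, Myoc from -1.68 to -0.89, Gpx3 from -0.68 to -0.21, Serpinf1 from -1.16 to -0.49, Gstm1 from -1.68 to -0.28, Cst3 from -0.40 to -0.29, Clec3b from -0.70 to -0.34, Inmt from -2.58 to -1.25 and Slurp1 from -3.54 to -0.50. Where an arm was left with 1 sample, it was assumed to vary like the other group. The replicate block raised the genes called from 0 to 38 in pSSPCs and to 12 in gpSSPCs. With 3 libraries per group and the block, an alternative chosen after seeing the data, 5 pSSPC genes were called. Without the filter on low counts 5 and 3 genes were called, DESeq2 called 1 in gpSSPCs, and leaving out a library gave 0 to 1 and 0 to 4. By the study's thresholds, 111 pSSPC genes were lower and 31 higher, against 376 and 245 with the block, 402 and 404 with 3 libraries, 250 and 68 by DESeq2, 232 and 79 without the filter and 205 and 72 in 1 fit over the 4 groups. In gpSSPCs, 20 and 37 became 208 and 255 with the block, 269 and 253 with 3 libraries, 41 and 65 by DESeq2, 63 and 118 without the filter, and 13 and 16 in 1 fit. With 3 libraries and the block the counts were 903 and 940 in pSSPCs and 623 and 680 in gpSSPCs.

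The number of members below 0 in gpSSPCs was 8 and fell to 3 without CKO replicate 1 (range 3 to 8). Signs reversed in gpSSPCs under the block for Apod (0.00) and Slurp1 (0.01), with 3 libraries for Slurp1 (0.03, and 0.11 with the replicate block), and with RLE and DESeq2 for Gsn (0.01) and Apod (0.01). Leaving out 1 library gave gpSSPC ranges of -0.05 to 0.03 for Gsn, -0.38 to 0.31 for Apod, -0.80 to 0.28 for Myoc, -0.57 to 0.17 for Gpx3, -0.31 to 0.20 for Serpinf1, -0.54 to 0.75 for Gstm1, -0.49 to 0.20 for Clec3b, -1.06 to 0.62 for Inmt and -0.18 to 0.51 for Slurp1, and Cst3 stayed positive (0.47 to 0.85). The cause was not tested. In PMSC-like cells Gpx3 had log2 CKO to control ratios of -1.31 without integration and -1.06 at resolution 0.5. No PMSC-like cluster formed with members among the variable features or with at least 500 genes per cell, so those gave no value. Under alternatives other than left-out libraries, 24 values of the main results kept their direction and size within the spread and 6 moved. Among the secondary values under these alternatives, 491 did so, 41 moved and 8 reversed. In the 16-week PMSC-like cells Inmt and Slurp1 had at most 3 UMIs per library, too few to compare.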
